A study of Mus musculus with 2 samples.

Results

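The account covers 7 genes that mature blood neutrophils express, out of 20284 genes named on the array: the receptor genes Cxcr2, Csf3r, Trem1, Il1r2, Fpr1 and Fpr2, and Prok2, which encodes a secreted protein. A gene was read from each non-control probe whose RefSeq transcript accession belongs to it, and each of the 7 had 1 probe with 1 spot. The genes were chosen by name with earlier results of these arrays known, so their values are a description and support nothing by themselves. The samples were whole livers of male C57BL/6 mice with liver fibrosis, injected intravenously with PBS, the control, or with recombinant TSG-6, a secreted protein that binds hyaluronan. Both groups carried the fibrosis; how it was induced, the dose and the age of the mice are not given in the sources used here, and livers without fibrosis were not analysed here. RNA collected after 2 weeks was combined in equal parts from 3 mice a group, and each pool went on 1 one-colour Agilent array, which makes 2 arrays in all. There is no replicate, so no test could be made, and every difference is one between these 2 pools. Both arrays lay on 1 slide and were scanned on the same day; the position on the slide and the group cannot be told apart.

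Neutrophils mature in the bone marrow. Promyelocytes make the proteins of the primary granules, myelocytes those of the secondary granules, and the receptors for chemoattractants and growth factors are most abundant on the mature cell. Cxcr2 is the receptor for the neutrophil-attracting CXC chemokines and draws mature cells out of the marrow; Csf3r is the receptor for granulocyte colony-stimulating factor (Csf3); Fpr1 and Fpr2 sense formylated peptides of bacteria and mitochondria. Trem1 amplifies inflammatory signals through the adaptor Tyrobp, and Il1r2 is a decoy that binds interleukin-1 without signalling. Prok2, also called Bv8, is a small protein released by myeloid cells, known to be induced by Csf3 and to act on endothelial and other cells through the receptors Prokr1 and Prokr2. Trem1, Il1r2, Fpr1 and Fpr2 are also expressed by monocytes and macrophages.

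Prok2 was the member with the largest difference between the pools, and Il1r2 the receptor with the largest, in the opposite direction. The promoter windows of both are printed with that of Csf3r, a receptor gene that differed less. Each is the 250 bases before the annotated start, from RefSeq on build GRCm38.p6, and capitals mark the searched motifs found in it. The Prok2 window is chr6:99726393-99726642 on the minus strand, that of Il1r2 chr1:40085843-40086092 on the plus strand, and that of Csf3r chr4:126024409-126024658 on the plus strand.
Prok2: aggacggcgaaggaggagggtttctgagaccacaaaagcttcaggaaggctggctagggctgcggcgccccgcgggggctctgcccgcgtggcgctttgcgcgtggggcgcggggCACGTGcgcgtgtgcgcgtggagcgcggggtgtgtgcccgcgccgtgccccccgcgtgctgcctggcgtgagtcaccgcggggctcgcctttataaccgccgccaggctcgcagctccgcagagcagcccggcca
Il1r2: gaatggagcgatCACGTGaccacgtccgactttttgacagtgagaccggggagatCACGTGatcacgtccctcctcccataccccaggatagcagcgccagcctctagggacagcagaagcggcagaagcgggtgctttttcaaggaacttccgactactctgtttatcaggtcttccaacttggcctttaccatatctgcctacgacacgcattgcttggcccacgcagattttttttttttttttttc
Csf3r: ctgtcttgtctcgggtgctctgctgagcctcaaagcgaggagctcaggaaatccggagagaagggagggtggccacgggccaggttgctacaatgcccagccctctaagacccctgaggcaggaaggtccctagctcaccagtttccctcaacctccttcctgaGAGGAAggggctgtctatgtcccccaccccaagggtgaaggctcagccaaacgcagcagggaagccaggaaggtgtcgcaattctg

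The 3 motifs were searched on both strands. CACGTG, the E-box bound by clock and Myc-family factors, was found in the windows of Prok2 (1 match) and Il1r2 (2 matches) and is in 6.02% of all 32851 promoter windows. GAGGAA, a core of sites for the myeloid factor PU.1, was found in 4 of the 7 windows, those of Cxcr2, Csf3r, Trem1 and Fpr2, and in 23.3% of all. TTGCNNAA, part of sites for C/EBP factors, was in none of the 7 and in 9.56% of all. The base composition of the 7 windows spanned a wide range. The Prok2 window had 73.6% G and C with 34 CpG sites, more CpG sites than 96.5% of all windows, while those of the neighbouring genes Fpr1 and Fpr2 had 38.4% and 38.8% G and C with 1 and 0 CpG sites. The median window had 52.4% and 6 CpG sites. These matches are letters in a window and not measured sites of binding.

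On the arrays, Prok2 was well above background in the TSG-6 pool alone. Its spot read 13.6 ± 5.60 with PBS and 147.6 ± 15.4 with TSG-6, the errors being those that the scanner software assigned to the spots. The PBS spot had a median pixel of 35 over a local background of 34.5, and the TSG-6 spot one of 165 over 20. Negative control spots without an outlier flag, 273 in number, reached at most 7.15 with PBS and 6.51 with TSG-6. The PBS signal of Prok2 exceeded all of these controls, but the software did not call it well above background. Its PBS level was therefore taken as bounded from above only. Against the lowest signal that counted as detected on that array (24.1), Prok2 was at least 7.82-fold higher in the TSG-6 pool, a log2 difference of at least 2.97. Among the 390 genes detected in the TSG-6 pool alone, 14.6% had a bound of 2-fold or more. Of the 274 genes detected in the PBS pool alone, 95 had a bound of 2-fold or more in the other direction. Both sets were picked by the array that detected them, so these shares are a description and lend the bound of Prok2 no weight. The bound ran from 2.60 to 3.26 over 12 settings, the main one included. With normexp, whose offset of 50 on every signal shrinks differences of dim spots, the value was 1.63, or 3.10-fold, which is not a bound.

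The remaining members are receptors, and none of the 5 measured on both arrays differed by 2-fold. Of the 15151 genes that both arrays measured, 2.94% reached 2-fold in the direction of TSG-6 and 4.29% in that of PBS. Signals were put on a common scale by dividing by each array's 75th percentile, which was 3158 with PBS and 2476 with TSG-6, so that equal raw signals stand 0.35 apart on the log2 scale. The software's error was about 10% of the signal for each receptor spot, which gives an error of 0.20 for a log2 difference; replicate spots of 327 probes gave a pooled SD of 0.13. Both measure spot error alone and leave out the spread between mice.

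**Figure D1:**
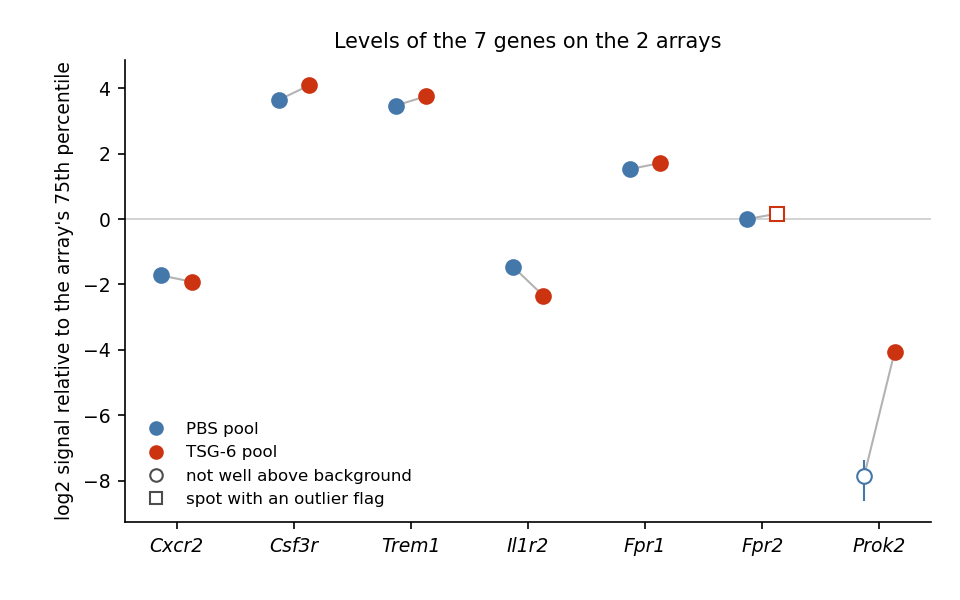
Log2 signal of each gene relative to its array's 75th percentile (vertical axis) in the PBS pool (blue) and the TSG-6 pool (red), with the scanner software's spot error as bars, mostly smaller than the points. Open circles mark a spot not well above background and open squares a spot with an outlier flag; Prok2 stands apart, with levels of -7.86 and -4.07, and levels of different genes come from different probes and are not compared.

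Csf3r had a signal of 39442 in the PBS pool and 42005 in the TSG-6 pool. The scaled log2 level went from 3.64 to 4.08, so that the receptor was 1.36-fold higher with TSG-6, a log2 difference of 0.44. It was the one receptor whose signal was higher on the TSG-6 array before scaling too, and its difference stayed above 0 under all 13 alternative settings, between 0.08 and 0.73. Those settings that change only flags, filters or probe averaging could not move it, since it was read from 1 unflagged, well-detected spot. The ligand Csf3, the growth factor that drives neutrophil production, had signals of 97.4 and 73.6 and a difference of -0.05, with alternatives from -0.42 to 0.24. Of the genes that act downstream of Csf3r, the transcription factor Stat3 and the feedback inhibitor Socs3 each differed by 0.50 and the C/EBP factor Cebpd by 0.55, all above 0 in every alternative. In the same pathway the kinases Jak2 and Pim1, at 0.12 and 0.36, and the factor Cebpb, at 0.01, took either sign with the scaling, and the kinase Jak1 stood at -0.01 with its flagged spots kept. Of the receptors of the related growth factors, Csf2ra at -0.01 and Csf1r at 0.22 lay nearer 0. Csf2rb stood at 0.27 by its brighter probe and at 0.45, like Csf3r, by its other probe. Csf2ra, Csf1r and the brighter probe of Csf2rb took either sign with the scaling.

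Cxcr2 had a signal of 955.4 in the PBS pool and 655.9 in the TSG-6 pool, a log2 difference of -0.19, which is within the spot error of 0.20. Its alternatives ran from -0.56 to 0.10, the one value above 0 coming from the 75th percentile of unflagged spots. The gene next to it on the chromosome, Cxcr1, encodes its closest relative and was dim, at 51.3 and 56.1, with a difference of 0.48. Of the other chemokine receptors, Cxcr4, which retains neutrophils in the marrow, differed by 0.42 and the scavenger Ackr1 by 0.81, both above 0 in every alternative. The chemokines that Cxcr2 binds differed in both directions. Cxcl5 was 2.81-fold higher, with signals of 1119 and 2462, and Cxcl1, at 8847 and 11174, differed by 0.69. Cxcl2 was 3.85-fold lower, with signals of 237.8 and 48.4, and Cxcl3, detected with PBS alone at 57.4, was at least 2.42-fold lower with TSG-6; its normexp difference was -0.53. Ppbp, the platelet chemokine, differed by 0.50, and Cxcl15 was detected in the PBS pool alone with a bound of -0.59. The difference of Cxcl2 was -1.08 under normexp, and that of Cxcl5 stayed above 2-fold in every alternative.

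Il1r2 had a signal of 1155 in the PBS pool and 489.1 in the TSG-6 pool. The decoy receptor was 1.85-fold lower with TSG-6, a log2 difference of -0.89, larger than its spot error of 0.20 and lower than that of all but 5.30% of measured genes. The local background of its PBS spot had an outlier flag. Alternatives ran from -1.26 to -0.60, and the gene was past 2-fold in 3 of 13, those scaled by the array median or the spike-in controls, at -1.26, or not scaled, at -1.24. Among genes of like signal, in class 4 of 10 counted from the dimmest, the differences had an SD of 0.81, and Il1r2 lay -1.03 SDs from the median of its class.

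Other genes of the interleukin-1 system differed in both directions. Il1rn, the receptor antagonist, was 2.01-fold lower, with signals of 1786 and 695.5 and alternatives from -1.38 to -0.72, some of them within 2-fold. The cytokine Il1b, at 8673 and 8650, differed by 0.35 with alternatives from -0.02 to 0.64, and Il1a by -0.19 with alternatives from -0.56 to 0.10. The shared chain Il1rap was dim, at 54.6 and 34.3, and differed by -0.32, with alternatives from -0.69 to 0.64. The signalling receptor Il1r1, which lies next to Il1r2, had spots with an outlier flag on both arrays and differed by 0.37 with them kept. The related receptors Il1rl1 and Il18r1 differed by -0.43 and 0.35, the latter with alternatives from -0.02 to 0.64 and 0.69 by its other probe. Both decoy and antagonist, which limit interleukin-1, were thus below their PBS level in every setting tried.

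Trem1 had a signal of 35044 in the PBS pool and 33440 in the TSG-6 pool, a scaled log2 difference of 0.28. Fpr1 had a signal of 9109 and then 8118, a scaled difference of 0.18. Both were lower on the TSG-6 array before scaling and higher after it: Trem1 stood at -0.08 and Fpr1 at -0.18 with the spike-in controls as scale, and at -0.07 and -0.17 with no scaling. Among genes of like signal Trem1 lay close to the median of its class, class 10, the brightest, which was 0.26 with an SD of 0.26. Csf3r, in the same class, lay 0.68 SDs above that median, Fpr1 0.31 SDs above that of class 8, and Cxcr2 -0.17 SDs from that of class 4. All 4 were thus within 1 SD of genes as bright as themselves.

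Fpr2 had a signal of 3155 in the PBS pool and 2780 in the TSG-6 pool. The TSG-6 spot had a flag for uneven pixels, so Fpr2 was not counted as measured. With flagged spots kept its log2 difference was 0.17, and the authors' deposited table, which holds the spot, gives 0.16. Over 10 scalings with flagged spots kept, a setting chosen after seeing the data, it ran from -0.20 to 0.46, where its neighbour Fpr1 ran from -0.18 to 0.47. Of the other formyl peptide receptor genes, Fpr3, Fpr-rs3 and Fpr-rs4 were not well above background on either array, and Fpr-rs6 was dim, at 30.5 and 37.9. The ligands differed by less than 2-fold: Anxa1, an anti-inflammatory ligand of Fpr2, by -0.20 with alternatives from -0.56 to 0.09, and the acute phase protein Saa1 by 0.07 with alternatives from -0.30 to 0.36. The other probe of Anxa1 gave -0.46.

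**Figure D2:**
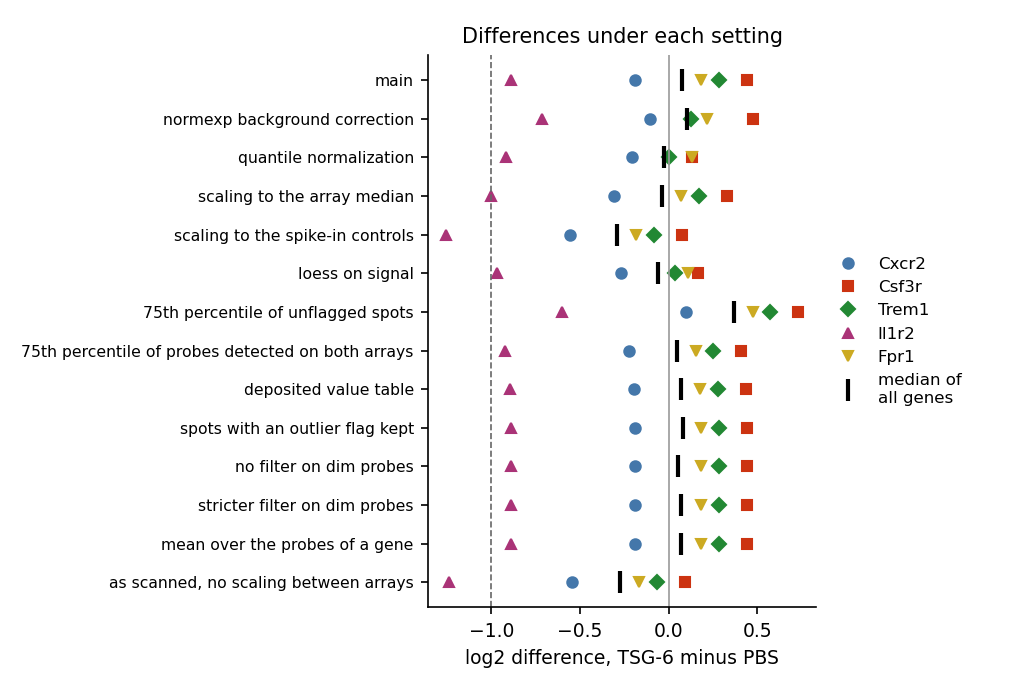
Log2 difference, TSG-6 minus PBS (horizontal axis), of the 5 receptor genes measured on both arrays under each setting (rows), with the median of all measured genes as a black bar and 2-fold lower as a dashed line. Scalings by 1 constant per array shift genes and median alike. Rows that change only flags, filters or probe averaging repeat the main values of these receptors. Il1r2 is below 0 and Csf3r above 0 in all rows, while Cxcr2, Trem1 and Fpr1 take either sign.

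Genes that act with Trem1 included the adaptor Tyrobp, which differed by 0.11 with alternatives from -0.26 to 0.40, and the kinase Syk, which Tyrobp recruits, at -0.40 and below 0 in every alternative. Pglyrp1, a granule protein that binds Trem1, differed by 0.73, with signals of 446.4 and 580.6. The family members differed in direction: Trem3, the neighbour of Trem1 on the chromosome, stood at 0.43 and stayed above 0 in every alternative, while Trem2, the receptor of lipid-associated macrophages, stood at -0.82 and stayed below 0. Treml2 stood at -0.39 by its brighter probe, below 0 in every alternative, and at -0.10 by its other probe. Treml1 and Treml4, at 0.32 and -0.03, took either sign. Over the whole list of paralogues and partner chains, 16 of 21 genes on the array were measured and 0 passed 2-fold in either direction, against 7.23% of all measured genes, with a median of 0.24 against 0.08 and alternatives from -0.12 to 0.53. Of the list of ligands and Prok2 receptors, 12 of 17 were measured, 1 (Cxcl5) passed 2-fold upward and 3 (Cxcl2, Il1rn and Prokr1) downward, with a median of 0.01 that took either sign with the scaling. Of 16 genes of signalling downstream of the receptors, 12 were measured. Of these 0 passed 2-fold, and the median was 0.05, likewise of either sign. The other 4 had outlier flags and were named after their values were seen. With flagged spots kept, Card9 was 2.10-fold lower, with signals of 2061 and 771.1, while Gnai2, Fgr and Jak1 stood at 0.27, 0.35 and -0.01.

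Prokr1, the receptor for Prok2 that the array detected, was 4.74-fold lower in the TSG-6 pool, the opposite direction to its ligand. Its signals were 357.7 and 59.2, and its log2 difference of -2.24 ran from -2.61 to -1.25 over the alternatives. Prokr2 was not well above background on either array, at 5.45 and 4.23. Prok1, the other ligand of these receptors, was detected in the TSG-6 pool alone, at 23.0, with a bound of 1.22-fold. Prok2 and Prokr1 thus stood on opposite sides in these pools, each by more than 2-fold in every setting tried.

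**Figure D3:**
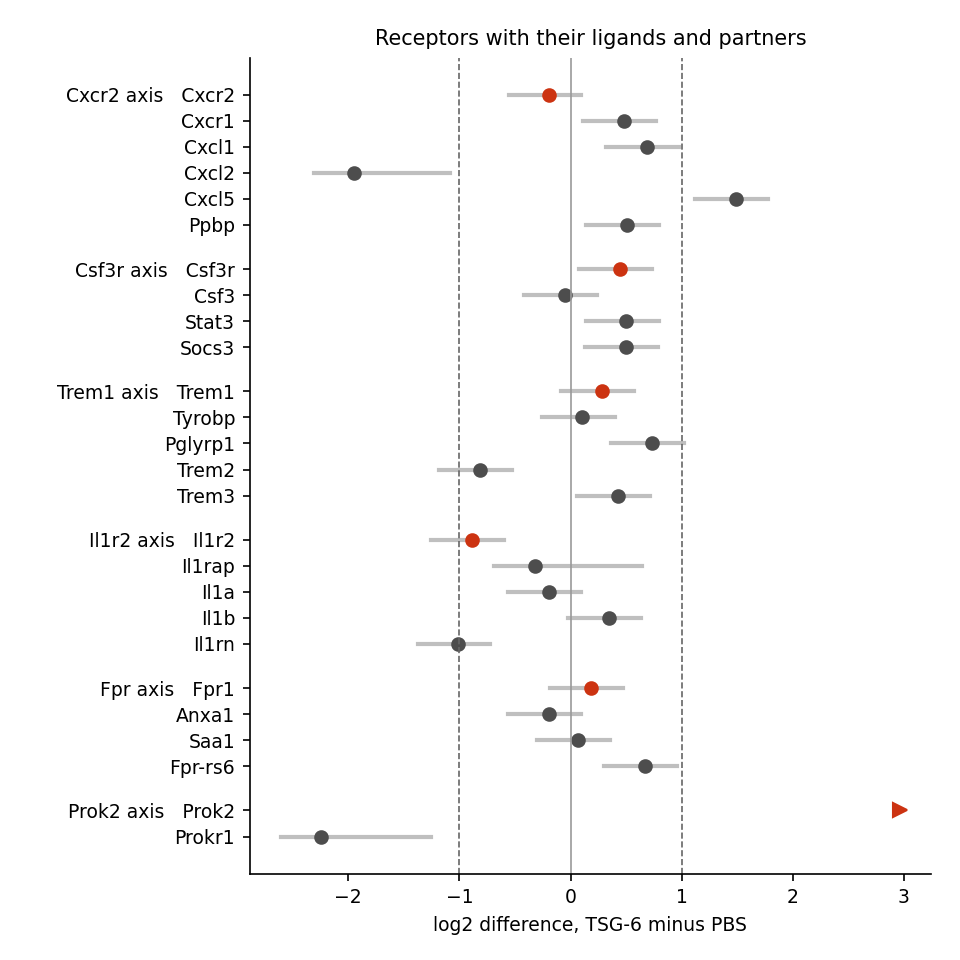
Log2 difference, TSG-6 minus PBS (horizontal axis), of the receptor genes measured on both arrays and Prok2 (red), grouped by receptor. Grey points are a selection of their ligands, relatives and partners. Grey bars span the alternative settings and dashed lines mark 2-fold. Among the genes not drawn are Fpr2, Cxcl3 and, of the Csf3r pathway, Jak2 (0.12), Pim1 (0.36), Cebpb (0.01), Cebpd (0.55) and Csf2ra (-0.01). The triangle of Prok2 is a lower bound of 2.97, with Prokr1 at -2.24, Cxcl2 at -1.94 and Cxcl5 at 1.49 the other points farthest from 0.

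Other genes of neutrophils were read by the stage of maturation at which they are made. All 8 genes of primary granules and promyelocytes were measured, and 7 passed 2-fold upward with TSG-6; their median was 2.84, and 2.01 under normexp. Prss57 and Prtn3, named after their values were seen, were 2 of the 7 and within 2-fold in some alternatives. Ms4a3, a marker of granulocyte-monocyte progenitors, was 22.3-fold higher and the protease Ctsg 15.6-fold. Of 8 measured genes of secondary granules and myelocytes, 5 passed 2-fold upward, with a median of 2.48, and 1.78 under normexp. These 5 were Ngp (12.7-fold), Ltf (11.2-fold), Itgb2l (10.9-fold), Camp (6.87-fold) and Cd177 (4.50-fold), the last named after its value was seen. The rest of the 8, also named after their values were seen, were Cebpe at 0.97, Lcn2 at 0.23 and Chil3 at -0.73. Chil3, with signals of 25075 and 11848, was below 0 in every alternative. Lcn2, with 81633 and 74856, took either sign, and Cebpe passed 2-fold in some alternatives.

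The other genes of mature neutrophils, 19 of 21 measured, had a median of -0.07, with alternatives from -0.43 to 0.22. In this list 9 genes lay above 0 and 10 below, and 1 passed 2-fold upward and 4 downward. The 4 were the platelet-activating factor receptor Ptafr, with signals of 1189 and 275.1 (3.39-fold lower), the complement receptor C5ar1, with 2246 and 608.8 (2.89-fold), the chemokine receptor Ccr1, with 1373 and 430.8 (a log2 difference of -1.32), and the lectin Clec4d (2.20-fold, within 2-fold in some alternatives). The 1 was Stfa2l1, named after its value was seen, 2.15-fold higher and within 2-fold in some alternatives. S100a8, an abundant calgranulin, differed by 0.85, and its partner S100a9 by 0.18, with alternatives from -0.19 to 0.47. These lists, too, were drawn up with earlier results known, and no test of the difference between them was possible. Which cells of the liver Ptafr, C5ar1, Ccr1 and Clec4d were read from was not tested.

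**Figure D4:**
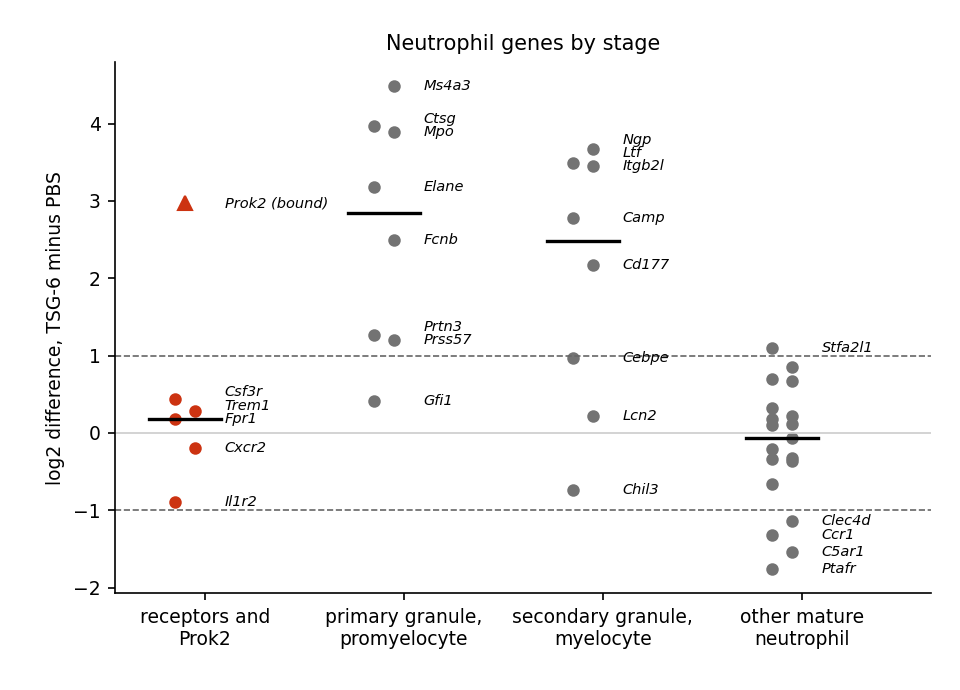
Log2 difference, TSG-6 minus PBS (vertical axis), of each gene measured on both arrays, by stage of neutrophil maturation; black bars are medians and dashed lines mark 2-fold. The receptor genes (red circles) lie between -0.89 and 0.44 and the other mature genes around a median of -0.07, while the granule lists have medians of 2.84 and 2.48; Prok2 (triangle) is a lower bound.

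In whole liver, fewer cells of a type and less RNA per cell cannot be told apart, and markers of other cells were read beside the receptors. Of 12 measured monocyte and macrophage genes, out of 16 listed, 1 passed 2-fold upward and 1 downward. Their median was -0.04, with alternatives from -0.41 to 0.25, and their summed signal, in units of the 75th percentile, was 86.1 in the PBS pool and 89.1 in the TSG-6 pool. The 1 downward was Cd14, a receptor of bacterial products also found on neutrophils, 2.15-fold lower. The 1 upward was Timd4, a marker of resident Kupffer cells, 2.39-fold higher. Both were within 2-fold in some alternatives. Clec4f and Vsig4, Kupffer cell genes of the same list named after their values were seen, differed by 0.29 and 0.27 and took either sign with the scaling. Cx3cr1 and Fcgr1 differed by -0.83 and -0.81. The part of these markers in the values of Il1r2, Trem1, Fpr1 and Fpr2, or of Ptafr, C5ar1, Ccr1 and Clec4d, was not tested.

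Of 7 measured markers of eosinophils, basophils and mast cells, out of 8, 4 passed 2-fold upward and 2 downward, with a median of 1.06 and summed signals of 1.29 with PBS and 1.24 with TSG-6. Mcpt8, a basophil protease, was 8.44-fold higher, and Siglecf, an eosinophil lectin, was 3.04-fold lower. The others past 2-fold were Prg2, Epx and Fcer1a, upward, and Ccr3, downward, with Fcer1a and Ccr3 named after their values were seen; Epx, Fcer1a and Ccr3 were within 2-fold in some alternatives. The median of the list was 0.66 under normexp. Of 5 measured erythroid genes, 2 passed 2-fold upward, Car1 (5.14-fold) and Klf1 (4.01-fold), with summed signals of 2.64 and 6.04. Of 5 progenitor genes, 1 passed, Myb (3.09-fold higher), and of 4 platelet genes 1 passed, Gp9 (2.17-fold higher, within 2-fold in some alternatives), with sums of 6.31 and 3.61. The platelet sums followed the brightest gene, Pf4, with signals of 18782 and 7686 and a difference of -0.94. It was the 1 platelet gene below 0, with 3 above, and the list median was 0.26, with alternatives from -0.11 to 0.55. Among markers of T, B and NK cells 0 of 8 passed, with sums of 2.21 and 2.08, and among endothelial genes 0 of 5, with sums of 19.1 and 22.7. Among the markers of eosinophils, basophils and mast cells, Ms4a2 was not well above background on either array. Cpa3 of that list, dim at 55.5 and 71.6, differed by 0.72, with alternatives from 0.26 to 1.01. Both were named after their values were seen. The part of these markers in the values of Prok2 and the receptors was not tested. The tissue label was checked on hepatocyte genes: 5 of 8 listed were measured, the other 3 being Ttr and Cps1, with flagged spots, and Tf, which was listed under a symbol that is not the mouse one (Trf) and so matched no gene, and Alb, Apoa1, Fgb and Cyp2e1 had signals between 34030 and 82574. Their list had scaled sums of 87.9 and 125.2. Of the 5 measured, 1 passed 2-fold upward, Cyp2e1 (2.27-fold, within 2-fold in some alternatives). The list median was 0.37, and 0.00596 with spike-in scaling. Before scaling the signals of Alb were 62503 with PBS and 63130 with TSG-6.

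**Figure D5:**
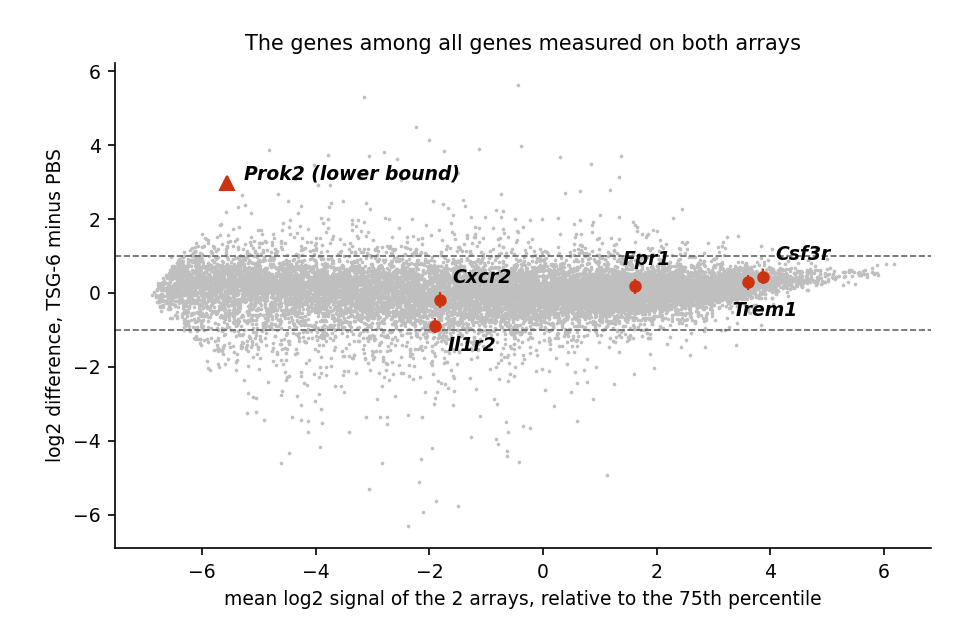
Log2 difference, TSG-6 minus PBS (vertical axis), against mean log2 signal relative to the 75th percentile (horizontal axis) for the 15151 genes measured on both arrays (grey), with dashed lines at 2-fold and bars for the spot error. The receptor genes (red circles) lie within the grey band, Il1r2 lowest at -0.89, and the triangle marks the lower bound of Prok2 at 2.97.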

How the data were processed

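Per the labels, the cRNA of each pool came from 0.2 ug of RNA and carried Cy3. The deposited scanner files give the linear intensity of every spot after the software's own background subtraction; the file headers name Agilent Feature Extraction 11.5.1.1, the submitters' processing notes 10.7. The deposited value table is in log2, and equalled the log2 processed intensity minus 1 constant per array within 0.001 for 100% of single-spot probes, with column medians of -3.90 (PBS) and -3.77 (TSG-6).

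From the processed signals, log2 values relative to the 75th percentile of the 59305 non-control spots were computed. Flagged spots (3.40% and 6.44%) were left out, and 0 spots were saturated. A probe needed at least 50% of its spots well above background. Accessions named 26762 of 55681 probes through a RefSeq table of GRCm38.p6; the files' build is mm9. Each gene took the probe detected on most arrays, then the brightest. Genes were counted at 2-fold. The counting was tested on simulated data with spot noise alone and every counted probe detected on both arrays. Such data check the counting steps and do not give the rate of false counts in these pools. Normexp, quantile and loess values came from limma 3.58.1. The genes and all lists were chosen with earlier results of these data known. Named were the 7 genes, their ligands and relatives, up to 4 genes of each other list with the largest differences, and S100a8 and S100a9. Further genes were named after their values were seen, those so stated and Jak1, Jak2, Pim1, Cebpb and Apoa1. The planned naming of the 3 neutrophil genes nearest to Prok2 was dropped, since Prok2 has only a bound. The number of arrays limits the precision.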

Additional observations from a re-analysis of the deposited data

How the results depend on the processing

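No paired analysis was possible because each group has 1 array. Of 65 differences of the 5 measured receptors under 13 alternatives, 44 moved by less than the spot SD of 0.13 and 21 by more. The 44 include values fixed in advance. Keeping flagged spots, changing the filter on dim probes or averaging probes cannot move a receptor read from 1 unflagged, well-detected spot. The sign changed for Cxcr2 in 1 alternative and for Trem1 and Fpr1 in 2 each. The count of members at least 2-fold lower, 0 in the main setting, was 1 (Il1r2) with the array median, the spike-in controls or no scaling, the last chosen after seeing the data; the count at least 2-fold higher, 0, was 1 (Prok2) with no filter on dim probes, which takes its PBS signal as measured. The median over the 5 receptors, 0.18, was 0.00384 with quantile normalization, 0.0333 with loess, -0.18 with spike-in scaling, -0.17 with no scaling and 0.47 with the percentile of unflagged spots. The counts of all genes at least 2-fold higher and lower, 446 and 650, were 290 and 402 under normexp, 192 and 1390 with spike-in scaling, 196 and 1349 with no scaling and 1018 and 376 with the percentile of unflagged spots; 907 were higher with no filter on dim probes. Higher genes were 40.7% of those past 2-fold, against 29.5% with the array median, 28.7% with loess, 12.1% with the spike-in controls, 12.7% with no scaling and 73.0% with the percentile of unflagged spots, and the median of all genes, 0.08, was -0.29 and 0.37 at the ends. The Prok2 bound ran from 2.60 to 3.26 over 12 settings, the main one included; normexp gave 1.63, a value shrunk by its offset and not a bound.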
